A study of Mus musculus with 10 samples.

Results

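Nucleotide synthesis and one-carbon metabolism was followed through 45 genes in carcinoma cells sorted from mouse pancreatic tumours. The genes were the enzymes of purine and pyrimidine synthesis, deoxynucleotide supply, nucleoside diphosphate kinases, serine and folate metabolism and nucleotide salvage, chosen by name from these pathways. All 45 were matched to a gene and all 45 were above the expression filter, out of 17495 genes tested. The data were 10 RNA sequencing libraries of epithelial cells sorted by flow cytometry from pancreatic ductal adenocarcinoma (PDAC). The tumours grew in the pancreas of mice after transplantation of T6-LOH organoids, which the series title calls T-LOH KPC organoids, together with pancreatic stellate cells (PSCs), the fibroblast precursors of the pancreas. KPC names a mouse model of PDAC. In 5 libraries the PSCs were the PSC4 line labelled ROSA (Egfr WT PSC, below the WT PSC group), and in 5 they were a single Egfr knockout of PSC4, labelled B4 and read here as a clone name (Egfr KO PSC, below the KO PSC group). All 10 libraries share the organoid source. The title names NSG mice, an immunodeficient strain, whereas C57BL/6J is given as the strain of all 10 libraries, and neither says whether libraries came from separate mice. Since B4 alone stands for the knockout, loss of Egfr in the PSCs and other traits of B4 cannot be told apart. The markers used for sorting are not given in the labels. The p-values rest on the spread from library to library, which may be technical.

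Dividing cells need nucleotides for RNA and DNA. Purines are built stepwise on phosphoribosyl pyrophosphate (PRPP), with one-carbon units carried by folate that come largely from serine. Pyrimidines are built as a ring and then joined to PRPP. Ribonucleotide reductase turns ribonucleotides into deoxynucleotides, and salvage enzymes recover free bases and nucleosides. MYC is known to raise the expression of many of these genes.

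Between 39534055 and 53816086 estimated counts per library fell in genes. The epithelial marker genes summed to between 15551 and 26951 in a library as TMM-normalised counts-per-million values (CPM). Summed levels of 15 fibroblast markers were 1326 to 2329 CPM in the WT PSC group and 1190 to 2578 CPM in the KO PSC group, and those of 15 macrophage markers 42.7 to 109.8 and 56.7 to 87.9 CPM. Taken gene by gene, 4 of 15 fibroblast markers and 8 of 13 macrophage markers tested were lower in the KO PSC group at an unadjusted edgeR p under 0.05. Of all genes tested, 4.6% were lower at that level. The median log2 fold change (KO PSC group over WT PSC group) was -0.50 for the fibroblast and -1.22 for the macrophage markers. Erythroid markers summed to 6.496 to 42.5 CPM in the WT PSC group and to 0.905 to 3.55 CPM in the KO PSC group, without overlap. The other lists overlapped between the groups: neutrophil (2.53 to 7.57 and 3.36 to 8.35 CPM), endothelial (66.0 to 107 and 65.3 to 129.8 CPM), lymphocyte (0.166 to 0.528 and 0.234 to 0.578 CPM, with Cd3g at 0 in all libraries), acinar (120.2 to 361 and 96.4 to 454 CPM) and islet (26.4 to 226 and 55.6 to 192 CPM). The part of these cells in the values below was not tested. Fits with a fibroblast or macrophage score are given further on. Some markers in those scores were themselves lower in the KO PSC group, so such a fit cannot separate these cells from the group. In bulk RNA, fewer cells of a type and less RNA per cell cannot be told apart.

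Levels between genes were compared as transcripts-per-million values (TPM), which account for length. The 45 genes spanned from 377 TPM for Aprt to 0.583 TPM for Tymp as means over the 10 libraries. Aprt recovers adenine. Next in order were the nucleoside diphosphate kinase gene Nme2 (270 TPM), Paics of purine synthesis (266 TPM), Phgdh, the first enzyme of serine synthesis (249 TPM), Impdh2, which commits purines to guanine nucleotides (213 TPM), Nme1 (203 TPM) and Hprt, which salvages hypoxanthine and guanine (187 TPM). Paics and Phgdh, neighbours in this order, lay within each other's spread, since Paics was at 260.5 ± 33.3 and 272 ± 36.7 TPM and Phgdh at 244 ± 37.1 and 253 ± 39.4 TPM (WT PSC and KO PSC group, mean ± SD, n = 5 each, here and below). Nme2 was at 218 ± 29.4 TPM in the WT PSC group, below the mean of Paics, and at 322 ± 38.6 TPM in the KO PSC group, above it. The places of Nme2 and Nme1 in this order depend on how reads were split with a read-through gene, Gm20390, described below. Impdh2, Nme1 and Hprt also lay within each other's spread in the KO PSC group (213 ± 26.2, 213 ± 39.8 and 198 ± 29.0 TPM). Low in the order stood Pfas (11.0 TPM), the large trifunctional pyrimidine enzyme gene Cad (11.4 TPM) and Uck2, a uridine-cytidine kinase (11.7 TPM). Tymp, the thymidine phosphorylase gene, had between 0 and 69 estimated counts in a library and was near the limit of detection.

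**Figure D1:**
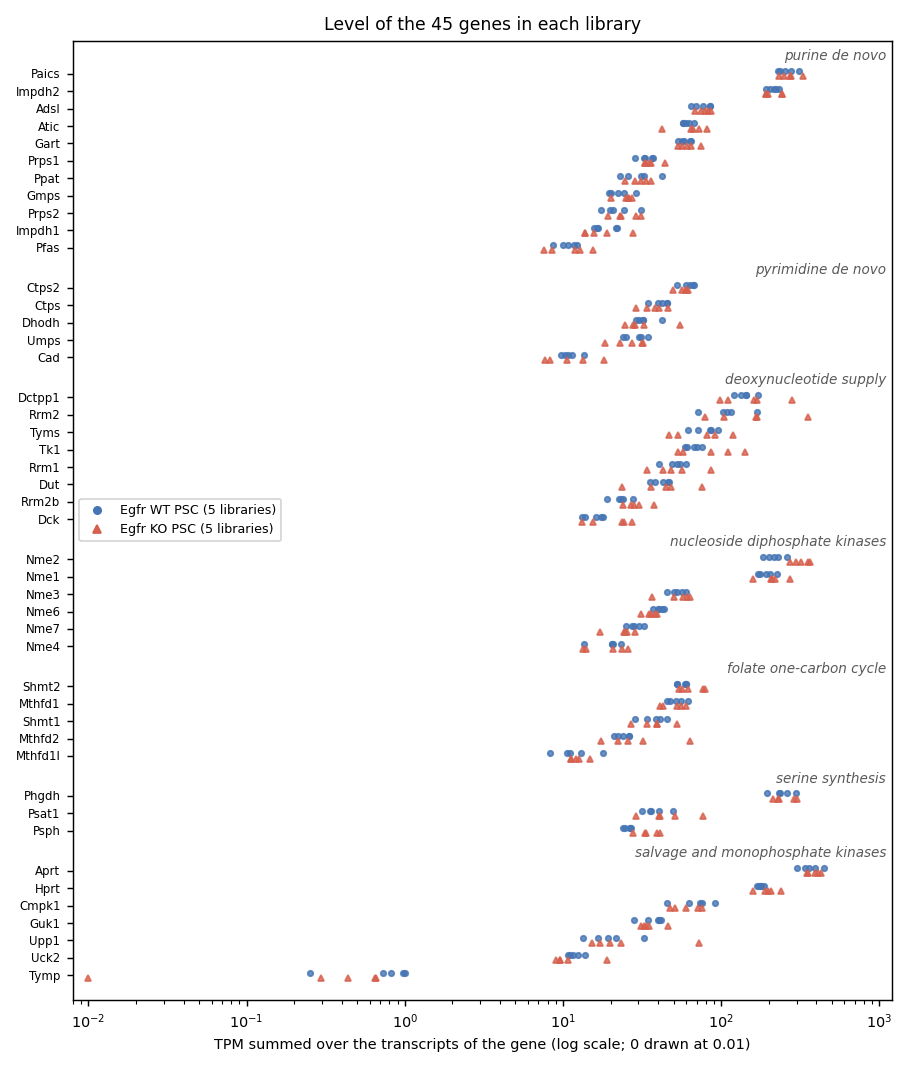
TPM of each of the 45 genes in each of the 10 libraries, on a log axis, grouped by role and ordered by mean within a role, with WT PSC libraries as circles and KO PSC libraries as triangles. Aprt (mean 377 TPM) is the highest and Tymp (mean 0.583 TPM) the lowest, and only Tymp lies under 5 TPM.

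With edgeR's quasi-likelihood test, 0 of the 45 genes passed an adjusted p of 0.05 over all 17495 genes, as did 0.0% of all genes. DESeq2 called 2, Nme2 and Psph, both higher in the KO PSC group, against 0.266% of the 15762 genes to which it gave an adjusted p called higher and 0.565% called lower. Limma voom called none of the 45, against 0.0171% of all genes. At an unadjusted edgeR p under 0.05, 4 of the 45 were higher in the KO PSC group (Nme2, Psph, Rrm2b and Dck) and 0 lower, where 3.55% of all genes were higher and 4.6% lower. In CPM the groups did not overlap in 3 genes, all higher in the KO PSC group (Nme2, Psph and Rrm2b). Of all genes, 0.777% lay apart in this way higher and 0.743% lower. In TPM the groups overlapped for Rrm2b. The median log2 fold change (KO PSC group over WT PSC group) of the 45 was 0.086, and 32 of them lay above 0 and 13 below, beside a median of 0.00041 and 50.1% above 0 for all genes. Without KO PSC replicate 3 the median was 0.0045, and 51.1% of the 45 lay above 0.

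**Figure D2:**
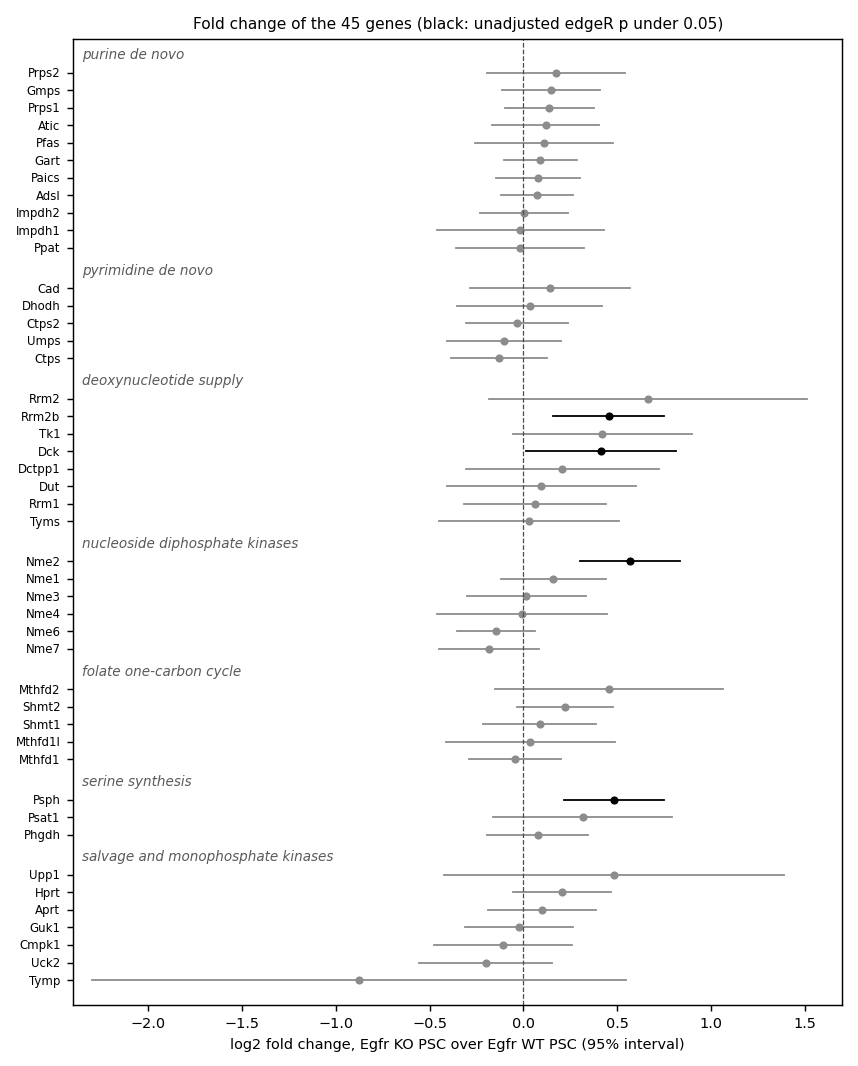
Log2 fold change, KO PSC group over WT PSC group, for each of the 45 genes with its 95% interval from the edgeR fit, grouped by role; the dashed line is the median of all genes tested. The intervals of Nme2, Psph, Rrm2b and Dck, in black, lie above 0, and none of the 45 passed after adjustment over all genes.

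Purine synthesis had no gene at an unadjusted edgeR p under 0.05. Of its 11 genes, 9 had a log2 fold change above 0 and 2 below, from -0.02 to 0.18 (median 0.089), with edgeR adjusted p of 0.769 or more. Paics, a bifunctional enzyme gene of the middle of the pathway, was at 437, 350.3, 374, 358 and 353 CPM in the WT PSC group (replicates 1 to 5, here and below) and at 373, 465, 378, 399 and 362 CPM in the KO PSC group. These values overlapped throughout (log2 fold change 0.078, 95% interval -0.15 to 0.30, edgeR adjusted p = 0.866). Ppat, which encodes the amidotransferase that opens the pathway, was at 65.5 ± 14.7 and 64.5 ± 8.98 CPM. Gart, another multifunctional enzyme gene, was at 108 ± 6.74 and 115 ± 9.19 CPM, Adsl at 77.8 ± 6.26 and 81.9 ± 4.44 CPM, and Atic, which closes the purine ring, at 117 ± 7.34 and 126 ± 23.6 CPM. Pfas, which takes nitrogen from glutamine, was at 40.2 ± 4.82 and 43.3 ± 11.0 CPM. At the branch to guanine nucleotides, Impdh2 was at 241 ± 24.7 and 242 ± 26.5 CPM, its paralog Impdh1, less abundant per length, at 27.2 ± 5.72 and 26.9 ± 8.01 CPM, and Gmps at 131 ± 17.9 and 145 ± 17.9 CPM. The PRPP synthetase genes Prps1 (43.9 ± 3.05 and 48.4 ± 6.37 CPM) and Prps2 (55.0 ± 12.3 and 62.1 ± 11.8 CPM) overlapped between the groups. The 95% intervals of the 11 log2 fold changes all spanned 0 and lay between -0.46, for Impdh1, and 0.54, for Prps2.

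Ppat and Paics are neighbours read in opposite directions, and sequence upstream of each start is shown because both encode enzymes of this pathway. In the RefSeq windows of GRCm38.p6, which is not the build of the quantification, the annotated start of Paics (76951302, plus strand) lies 276 bases below that of Ppat (76951578, minus strand) on chromosome 5, so the annotated transcripts overlap at their 5′ ends. The upstream window of each gene therefore lies on the transcribed side of the start of the other. Capitals mark the letters of an E-box (CACGTG, bound by MYC and related factors) upstream of Paics and of an E2F-type motif (TTTNNCGC or its complement) upstream of Ppat. The lines run 5′ to 3′ on the strand of the gene, at chr5:76951074-76951129 (+) for Paics and chr5:76951704-76951761 (-) for Ppat. The Nme1 lines, shown for the kinase genes described below, are at chr11:93968273-93968315 and chr11:93968026-93968079 (-), from its 2 annotated starts, and the Psph line is at chr5:129787420-129787477 (-).
Paics E-box: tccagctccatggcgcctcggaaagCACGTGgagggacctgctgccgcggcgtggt
Ppat E2F: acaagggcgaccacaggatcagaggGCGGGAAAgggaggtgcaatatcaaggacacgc
Nme1 E-box, first start: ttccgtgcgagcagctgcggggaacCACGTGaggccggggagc
Nme1 E-box, other start: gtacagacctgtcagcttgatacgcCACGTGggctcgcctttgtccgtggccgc
Psph E2F: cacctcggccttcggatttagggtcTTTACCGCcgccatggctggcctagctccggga

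Promoter windows of 250 bases before a start were found for 42 of the 45 genes, 52 windows in all, and were searched on both strands for 5 motifs. CACGTG occurred in 6 of the 52 (11.5%) and in 6.02% of all 32851 windows, and TTTNNCGC in 4 (7.69%) and 4.28%. CCAAT occurred in 17 (32.7%) and 33.8%, the NRF1-type motif (GCGC, any base, TGCGC) in 3 (5.77%) and 3.74%, and the ATF4-type motif TGATGNAAT in 0 and 0.816%. Matches of different motifs did not overlap each other in these windows. The E-box genes were Atic, Impdh2, Nme1, Paics and Tyms. The windows of Nme2 held neither an E-box nor the E2F letters. These are matches of letters only.

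Pyrimidine synthesis also had no gene at an unadjusted edgeR p under 0.05. Of 5 genes 2 were above 0 and 3 below (median log2 fold change -0.034), with edgeR adjusted p of 0.802 or more. Ctps2, one of the CTP synthetase genes and the most abundant of these 5 per length, was at 62.2, 49.4, 57.8, 51.4 and 58.4 CPM in the WT PSC group and at 62.3, 56.1, 41.6, 51.3 and 61.3 CPM in the KO PSC group. Its log2 fold change was -0.03 (95% interval -0.31 to 0.24, edgeR adjusted p = 0.963) and was 0.057 without KO PSC replicate 3 and 0.0072 without WT PSC replicate 1. A short coding transcript, Ctps2-203, held 46.1 ± 1.09% and 47.2 ± 3.28% of the TPM of Ctps2. The rank of Ctps2 per length therefore depends on the split between transcripts. The paralog Ctps was at 75.0 ± 6.94 and 68.5 ± 9.80 CPM. Cad, which carries out the first steps, was at 45.9 ± 7.60 and 50.7 ± 15.4 CPM, Dhodh, the mitochondrial dehydrogenase, at 33.2 ± 3.47 and 34.05 ± 10.6 CPM, and Umps, which makes UMP, at 68.7 ± 8.08 and 63.9 ± 11.8 CPM. The 95% intervals of the log2 fold change were -0.38 to 0.12 for Ctps and -0.28 to 0.57 for Cad. They were -0.35 to 0.42 for Dhodh and -0.41 to 0.20 for Umps. Cad (73.5 CPM) and Dhodh (52.9 CPM) were each highest in KO PSC replicate 3.

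Of the genes that supply deoxynucleotides, all 8 had a log2 fold change above 0 (median 0.31), beside 50.1% of all genes tested. Apart from Rrm2 and Rrm2b, each of them had its highest value in KO PSC replicate 3. Without that library the log2 fold change of Dctpp1 was -0.056. Of the 8 genes 2, Rrm2b and Dck, had an unadjusted edgeR p under 0.05. Rrm2b, the p53-inducible small subunit of ribonucleotide reductase, was at 40.5, 31.5, 40.7, 41.8 and 36.6 CPM in the WT PSC group and at 48.2, 45.8, 44.2, 67.6 and 56.0 CPM in the KO PSC group. In CPM every KO PSC library lay above every WT PSC library (log2 fold change 0.45, 95% interval 0.16 to 0.75, edgeR adjusted p = 0.44). In TPM the groups overlapped, with WT PSC replicate 4 at 27.6 TPM and KO PSC replicates 1 and 2 at 24.0 and 27.0 TPM. The log2 fold change of Rrm2b was 0.36 with effective length as an offset and 0.32 with limma on log2 TPM. With the macrophage score as a covariate its log2 fold change was 0.22, and with the fibroblast score 0.38, and in neither fit was the unadjusted p under 0.05. Dck, the deoxycytidine kinase gene that also activates gemcitabine, was at 35.1, 29.1, 26.7, 32.7 and 37.3 CPM and at 27.7, 47.4, 55.2, 50.2 and 33.9 CPM. KO PSC replicates 2, 3 and 4 were above all WT PSC libraries, and replicates 1 and 5 were within their range (log2 fold change 0.41, 95% interval 0.01 to 0.82, edgeR adjusted p = 0.604). Tk1, the thymidine kinase of S phase, was at 57.6, 56.2, 47.6, 60.4 and 66.5 CPM in the WT PSC group and 46.9, 93.7, 115, 75.8 and 54.1 CPM in the KO PSC group (log2 fold change 0.42, SE 0.22, edgeR adjusted p = 0.656). KO PSC replicates 2, 3 and 4 were again above all WT PSC libraries, and without replicate 3 the log2 fold change was 0.24.

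Rrm2, the S-phase small subunit of ribonucleotide reductase, was at 157, 249.6, 93.6, 141 and 157 CPM in the WT PSC group and at 113, 142, 226, 236 and 548 CPM in the KO PSC group. The value of KO PSC replicate 5 was the highest of the 10 and stood far from the other 4 of its group (log2 fold change 0.67, 95% interval -0.18 to 1.51, edgeR adjusted p = 0.686). Without that library the log2 fold change was 0.17. It was 0.36 with a number in the names of the deposited tables (8, 9 or 10, of unstated meaning and shared between the groups) as a factor. The excess lay in the main coding transcript, Rrm2-201, at 346 TPM in that library against 73.4 to 158 TPM in the other KO PSC libraries. The retained-intron transcript Rrm2-202, at 3.71 TPM, and the short coding transcript Rrm2-203, at 2.53 TPM, were within the range of the other libraries there. The large subunit gene Rrm1 was at 108 CPM in the same library and at 124 ± 17.2 and 129.5 ± 35.5 CPM in the groups. Tyms, the thymidylate synthase gene, was at 35.2 CPM there, its lowest value, and at 55.7 ± 8.29 and 56.8 ± 20.2 CPM in the groups.

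Dctpp1 and Dut encode enzymes that clear surplus or unwanted deoxynucleotides. Dctpp1, the most abundant of the 8 per length in the mean over all 10 libraries (Rrm2 was above it in the KO PSC group, 174 against 164 TPM), was at 49.9, 50.9, 41.4, 49.8 and 63.2 CPM in the WT PSC group and at 40.9, 58.7, 99.6, 58.1 and 37.7 CPM in the KO PSC group. The groups overlapped, and replicate 3 alone was above all WT PSC libraries (log2 fold change 0.21, SE 0.24, edgeR adjusted p = 0.847). Without that library the log2 fold change was -0.056. Dut, the dUTPase gene, was at 24.3 ± 3.42 and 26.0 ± 9.99 CPM and ranged from 14.3 CPM in KO PSC replicate 5 to 41.5 CPM in replicate 3.

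**Figure D3:**
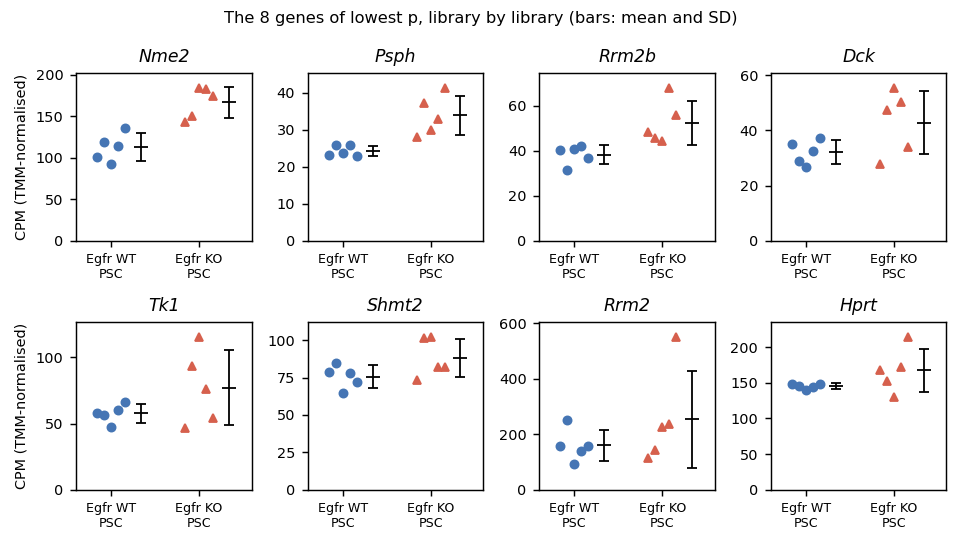
TMM-normalised CPM in each library for the 8 genes of lowest edgeR p, with circles for Egfr WT PSC, triangles for Egfr KO PSC and bars for the mean and SD of 5 libraries; all axes start at 0. The groups are separate in Nme2, Psph and Rrm2b and overlap in the other 5, and 1 library at 548 CPM sets the upper end of Rrm2.

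Among the nucleoside diphosphate kinases, which pass phosphate between nucleotides, Nme2 had the lowest p of all 45 genes. It was at 101, 119, 92.8, 114 and 136 CPM in the WT PSC group and at 143, 150.4, 183, 183 and 174 CPM in the KO PSC group. The groups did not overlap (log2 fold change 0.57, 95% interval 0.30 to 0.83, unadjusted p = 0.00056, edgeR adjusted p = 0.347, DESeq2 adjusted p = 0.0113). The neighbouring gene Nme1 was at 176 ± 12.8 and 197 ± 37.0 CPM (log2 fold change 0.16, edgeR adjusted p = 0.774), with overlapping groups. A read-through gene, Gm20390, shares sequence with both and took 230.3 ± 22.0 and 277 ± 51.3 TPM, so the split between the 3 depends on the quantification. Summed as 1 gene, Nme1, Nme2 and Gm20390 were at 426 ± 38.5 and 532 ± 78.3 CPM. The summed groups overlapped (log2 fold change 0.32, SE 0.12, edgeR adjusted p = 0.509). Both coding transcripts of Nme2 were higher in mean in the KO PSC group, Nme2-201 at 150.5 ± 13.4 and 215 ± 26.7 TPM and Nme2-202 at 67.5 ± 16.4 and 107 ± 14.6 TPM.

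The other 4 kinase genes were lower in level and had log2 fold changes of 0.01 or below. Nme3 was at 20.2 ± 2.70 and 20.4 ± 3.25 CPM and Nme4, which encodes a mitochondrial form, at 10.8 ± 2.002 and 10.7 ± 2.84 CPM. Nme6 was at 23.0 ± 1.08 and 20.8 ± 1.098 CPM, and Nme7 at 31.0 ± 2.88 and 27.3 ± 3.78 CPM, with edgeR adjusted p of 0.717 and 0.723.

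Serine synthesis runs from Phgdh through Psat1 to Psph, and all 3 had a log2 fold change above 0. Phgdh was at 351, 310.2, 267, 308 and 243 CPM in the WT PSC group and at 268, 344, 358, 280.3 and 306 CPM in the KO PSC group, with overlapping groups (log2 fold change 0.08, 95% interval -0.20 to 0.35, edgeR adjusted p = 0.899). Psat1, the transaminase gene, was at 64.5 ± 15.0 and 80.3 ± 26.8 CPM, with its highest value of 123 CPM in KO PSC replicate 3. Psph, the phosphatase gene of the last step, was at 23.1, 25.9, 23.7, 25.9 and 23.0 CPM and at 28.0, 37.4, 30.1, 32.9 and 41.2 CPM. Every KO PSC library lay above every WT PSC library (log2 fold change 0.48, 95% interval 0.21 to 0.75, edgeR adjusted p = 0.396, DESeq2 adjusted p = 0.0342). The highest Psph value was in replicate 5 and not in replicate 3, where Psat1 peaked. Its main coding transcript, Psph-201, was at 19.5 ± 1.67 and 26.8 ± 4.14 TPM.

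The folate genes move the one-carbon units. Shmt2, the mitochondrial serine hydroxymethyltransferase gene, was at 79.0, 84.5, 64.5, 78.3 and 71.9 CPM in the WT PSC group and at 73.1, 101, 102, 82.3 and 82.3 CPM in the KO PSC group. KO PSC replicates 2 and 3 were above all WT PSC libraries and the other 3 within their range (log2 fold change 0.22, 95% interval -0.04 to 0.48, edgeR adjusted p = 0.664). The mitochondrial dehydrogenase gene Mthfd2 was at 31.6 ± 4.33 and 43.4 ± 23.1 CPM, with 82.9 CPM in KO PSC replicate 3 as its highest value (edgeR adjusted p = 0.707). Mthfd1l, which releases formate from mitochondria, was at 30.0 ± 10.4 and 30.8 ± 4.995 CPM. The cytosolic genes Mthfd1 (113 ± 12.0 and 109.6 ± 13.7 CPM) and Shmt1 (47.6 ± 7.29 and 50.5 ± 8.02 CPM) overlapped between groups.

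In salvage, 3 of 7 genes were above 0 and 4 below (median log2 fold change -0.023). Aprt was at 195, 190.2, 128, 147 and 161 CPM in the WT PSC group and at 163, 152, 179, 181 and 206 CPM in the KO PSC group (log2 fold change 0.10, 95% interval -0.19 to 0.39, edgeR adjusted p = 0.867). Hprt was at 148, 146, 139, 144 and 149 CPM and at 168, 153, 130.4, 172 and 213 CPM. The WT PSC libraries were close together, and the KO PSC libraries lay above them except for replicate 3, which was below (log2 fold change 0.20, 95% interval -0.06 to 0.46, edgeR adjusted p = 0.69). The log2 fold change was 0.10 without KO PSC replicate 5 and 0.058 with the macrophage score as a covariate. The uridine phosphorylase gene Upp1 was at 15.7 ± 6.37 and 22.0 ± 17.2 CPM, with 52.5 CPM in KO PSC replicate 3 and 11.8 to 17.2 CPM in the other 4. Uck2 was at 28.2 ± 3.52 and 24.5 ± 6.09 CPM. The monophosphate kinase genes Cmpk1 (104 ± 17.9 and 96.2 ± 21.8 CPM) and Guk1 (21.7 ± 2.67 and 21.4 ± 3.04 CPM) overlapped between groups. Tymp was at 0.910 ± 0.381 and 0.491 ± 0.334 CPM.

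Library by library, KO PSC replicate 3 stood above the rest for these genes. For each gene the deviation of log2 CPM from its mean over the 10 libraries was taken, and the median over the 45 genes was 0.25 in KO PSC replicate 3, the highest, and -0.16 in WT PSC replicate 3, the lowest. Of the 45 genes 23 (51.1%) had their highest value in KO PSC replicate 3, where 18.2% of all genes did. The median for deoxynucleotide supply was 0.60 in that library, 0.18 in replicates 2 and 4, and -0.38 and -0.23 in replicates 1 and 5. Among WT PSC libraries it ran from -0.35 to 0.04. A list of 40 S phase and replication genes, none of them among the 45, gave 0.49, 0.25, 0.24, -0.34 and -0.42 in KO PSC replicates 3, 2, 4, 1 and 5. A list of 28 G2 and M phase genes gave 0.59 in replicate 3 and -0.53 and -0.50 in replicates 1 and 5. The purine group spanned less, from -0.17 to 0.14 over the 10 libraries. Not every gene had this order. Rrm2b, Psph, Hprt, Rrm2, Aprt, Gmps, Ctps2, Cmpk1 and Mthfd1l were each higher in KO PSC replicate 5 than in replicates 2 and 3. Rrm2 was at 548 CPM in replicate 5, where the S phase list was at -0.42.

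**Figure D4:**
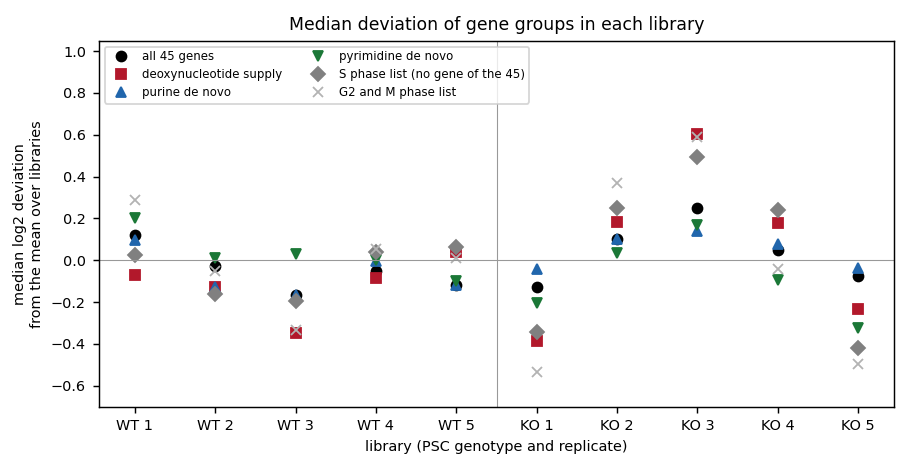
Median log2 deviation from the mean over 10 libraries, for all 45 genes, 3 of their role groups and 2 cell cycle lists, with 1 column per library. KO PSC replicate 3 is highest in each but pyrimidine synthesis (0.60 for deoxynucleotide supply and 0.49 for the S phase list), and replicates 1 and 5 are below 0 in each of the 6 groups drawn.

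The spread within a group was wider in the KO PSC group. The SD of log2 CPM over 5 libraries was larger there than in the WT PSC group in 36 of the 45 genes (80.0%), and in 61.0% of all genes tested. Its median over the 45 was 0.188 in the WT PSC group and 0.259 in the KO PSC group, beside 0.236 and 0.274 for all genes. The widest in the KO PSC group were Rrm2 (SD 0.87) and Upp1 (SD 0.86). With the S phase score as a covariate, the log2 fold change was 0.29 for Dck, 0.24 for Tk1 and 0.013 for Dctpp1. For Rrm2 it was 0.70 in this fit and 0.67 without the score. Nme2 was at 0.55, Psph at 0.50 and Rrm2b at 0.46 with the score. The unadjusted edgeR p with the score was 0.015 for Dck, 0.031 for Tk1 and 0.90 for Dctpp1, and without it 0.044, 0.079 and 0.39. Of the 40 genes in the score, 35 themselves had a log2 fold change above 0. Such a fit therefore cannot separate S phase from the group.

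**Figure D5:**
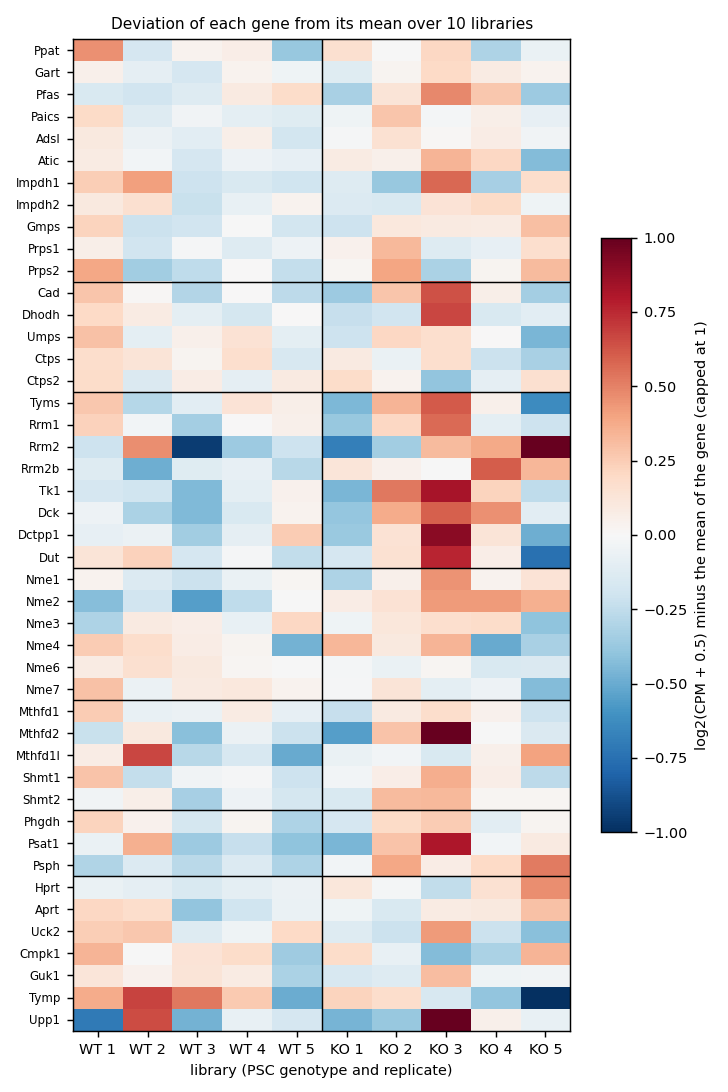
Log2 deviation of each of the 45 genes (rows, black lines between role groups) from its own mean over the 10 libraries (columns), with red above and blue below and the scale capped at 1. KO PSC replicate 3 holds the highest value of 23 genes, 6 of the 8 deoxynucleotide genes among them, and Rrm2 is highest in replicate 5.

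Some genes were quantified largely on transcripts annotated as retained intron, processed or subject to nonsense-mediated decay. Their share of the TPM of a gene was 72.8 ± 4.32% and 71.5 ± 7.05% for Tyms, 62.8 ± 6.77% and 59.6 ± 3.12% for Pfas, 46.6 ± 7.47% and 43.6 ± 7.01% for Shmt1, and 44.9 ± 4.202% and 49.6 ± 3.08% for Ppat. It was 0% for Nme1, Nme2, Hprt, Dctpp1 and Gmps in both groups. In Pfas most of it was 1 transcript, Pfas-205, with 60.9 ± 8.09% and 58.0 ± 2.45%. These shares are estimates of the quantification, and none was tested between groups.

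The wider pathways held few further genes at an unadjusted edgeR p under 0.05. Among all genes tested, 3.55% were higher and 4.6% lower at that level. Of 43 other nucleotide genes tested, 22 had a log2 fold change above 0 and 21 below (median 0.0052), with 2 higher and 1 lower at an unadjusted edgeR p under 0.05. These were the nucleoside transporter gene Slc29a1 (128 ± 13.0 and 169.9 ± 37.9 CPM, edgeR adjusted p = 0.512), Ak6 (134 ± 12.4 and 169 ± 37.2 CPM, edgeR adjusted p = 0.588) and, lower and named after its values were seen, the interferon-induced kinase gene Cmpk2 (0.658 ± 0.275 and 0.281 ± 0.174 CPM). Nt5c2, a nucleotidase gene, followed at 149.9 ± 15.8 and 176 ± 22.4 CPM. Of 30 other folate, serine and methyl cycle genes 21 were above 0 (median 0.076), and 2 were higher at that level, Ahcy and Gnmt. Gnmt, a methyltransferase gene known from liver and named after its values were seen, was at 0.568 ± 0.0544 and 1.21 ± 0.530 CPM, without overlap. Ahcy, which clears S-adenosylhomocysteine, was at 69.6 ± 10.3 and 96.9 ± 20.4 CPM (log2 fold change 0.48, edgeR adjusted p = 0.471). Aldh1l2 was at 4.22 ± 0.833 and 7.21 ± 4.45 CPM and Mat2b at 76.2 ± 5.70 and 85.4 ± 10.5 CPM.

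Of 24 amino acid response genes, which ATF4 governs together with the serine genes, 15 were above 0 (median 0.052), with Chac1 higher (4.61 ± 0.577 and 6.16 ± 1.27 CPM) and Stc2 (36.0 ± 15.6 and 21.03 ± 6.77 CPM) and Atf5 (9.33 ± 2.97 and 5.597 ± 2.56 CPM) lower at an unadjusted edgeR p under 0.05. At that level 3.55% of all genes tested were higher and 4.6% lower. Of 24 MYC network and target genes 16 were above 0 (median 0.057), beside 50.1% of all genes tested. At an unadjusted edgeR p under 0.05, 1 of them was higher and 1 lower. Myc was at 378 ± 42.3 and 501 ± 96.5 CPM (log2 fold change 0.40, edgeR adjusted p = 0.495), Mycn at 12.4 ± 7.15 and 5.06 ± 2.89 CPM, and Rcc1 at 29.0 ± 3.36 and 36.0 ± 8.85 CPM. Of the S phase list 35 of 40 were above 0 (median 0.14), and at an unadjusted edgeR p under 0.05, 1 was higher and 0 lower. Uhrf1 was at 73.3 ± 10.0 and 105 ± 39.2 CPM, Ccne2 at 20.2 ± 1.76 and 27.8 ± 9.94 CPM and Pcna at 141 ± 13.5 and 166 ± 24.4 CPM. Of the G2 and M phase list 15 of 28 were above 0 (median 0.019), and 0 were higher and 0 lower at an unadjusted edgeR p under 0.05. Kif20a was at 85.8 ± 21.1 and 72.4 ± 10.8 CPM, Birc5 at 44.9 ± 6.45 and 56.2 ± 23.0 CPM and Ccnb1 at 65.4 ± 12.9 and 81.3 ± 36.6 CPM. No gene of these 6 lists passed edgeR's adjusted p of 0.05 over all genes tested.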

How the data were processed

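The authors deposited 1 transcript table per library with the estimated count, the TPM and the effective length of each of 147828 transcripts. The submitters' processing notes name Salmon 1.9.0 and GRCm39; which transcript release was quantified is unknown here. The authors left the estimated counts without normalisation, whereas TPM corrects for length and scales every deposited library to the same total. Per the labels' protocols, the libraries were made with a low-input kit, with PCR cycles set by the RNA input, and no molecular identifiers are mentioned, so p-values and intervals cover counting error and library spread together.

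Transcripts were assigned to genes by identifier with GENCODE M21, used for names only (92.7% of transcripts; 1.31% to 1.93% of the estimated counts were left out as unassigned). Where 1 listed name had 2 genes, that with more reads was taken. Expected counts were summed per gene and rounded. The test was edgeR 4.0.16 (R 4.3.3; quasi-likelihood, TMM, minimum count 10, no covariate), with Benjamini-Hochberg adjustment over 17495 genes; it was tested on simulated data. SE and 95% intervals came from its F statistic. TPM and counts were summed over the transcripts of a gene. Alternatives used DESeq2 1.42.0, limma 3.58.1 and further scalings, filters, covariates and left-out libraries. A score is the mean log2 CPM of a list (prior count 2), and library medians used log2(CPM + 0.5).

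The 45 genes, the lists and the tests were chosen with earlier results of these data known, so no list gives independent support. Values in every library are given for the 8 genes of lowest p and the most abundant gene per length of each of 7 role groups. From each of 6 context lists the 3 genes of lowest p with a mean of at least 5 CPM are named.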

Additional observations from a re-analysis of the deposited data

Results flagged for a closer look

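In each of the 2 groups, the 5 libraries of each of the 45 genes were screened for 1 value far from the other 4 (a gap of more than 0.71 of the range of the group, Dixon's test). Of 90 sets of 5 values 7 were picked out. For independent sets of normally distributed values, chance picks about 1 in 20. The values screened were CPM without a log and the genes share libraries, so that rate is only a rough guide here. Of these 7 values, 4 were the highest of their group in KO PSC replicate 3. Dhodh was at 52.9 CPM there against 28.1 to 30.6 CPM in the other 4, and Upp1 at 52.5 CPM against 11.8 to 17.2 CPM. Uck2 was at 35.0 CPM against 19.3 to 23.7 CPM, and Guk1 at 26.7 CPM against 19.1 to 20.8 CPM. Rrm2 was at 548 CPM in KO PSC replicate 5 against 113 to 236 CPM. In the WT PSC group, Paics was at 437 CPM in replicate 1 against 350.3 to 374 CPM, and Guk1 at 17.0 CPM in replicate 5 against 22.1 to 23.5 CPM.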

How the results depend on the processing

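No paired analysis was possible because the replicate numbers follow accession order and mark no shared mouse, litter or day. DESeq2 called 2 of the 45 genes, where edgeR called 0. The number higher at an unadjusted p under 0.05, 4 in the edgeR fit, was between 3 and 8 when 1 library was left out, with 8 without KO PSC replicate 1, and between 3 and 6 in the other alternatives. The number lower was between 0 and 1 when 1 library was left out, the 1 being Uck2 without KO PSC replicate 3. The median log2 fold change was between 0.0045 and 0.13 when 1 library was left out and between 0.03 and 0.13 otherwise. Nme2 and Psph had an unadjusted p under 0.05 in each alternative run, at a log2 fold change of 0.50 to 0.80 for Nme2 on its own (0.32 for its sum with Nme1 and Gm20390) and 0.40 to 0.55 for Psph, while Dck had it in 12 of 22 fits, the reported one included. Among the 13 genes given with a test, the direction turned for Paics with the fibroblast score as a covariate (-0.048), for Ctps2 with limma voom (0.030) and between -0.082 and 0.057 when 1 library was left out, and for Dctpp1, between -0.056 and 0.34 when 1 library was left out. With the fibroblast score Dctpp1 was at 0.58 and Tk1 at 0.67. Over all 45 genes, 11 had the other sign without KO PSC replicate 3. With the number in the table names (8, 9 or 10) as a factor, Dck no longer had an unadjusted p under 0.05 (log2 fold change 0.43) and 64.4% of the 45 lay above 0. With the S phase score as a covariate 55.6% of the 45 lay above 0, beside 46.9% of all genes. Counting noise bears most on Tymp, with 0 to 69 counts in a library; the next lowest count was 306, for Nme4.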
